A study of Sus scrofa with 8 samples.

Results

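The genes described here are 10 genes of the endoplasmic reticulum stress response: HSPA5, HSP90B1, CALR, DNAJB9, HERPUD1, XBP1, ATF4, ATF6, DDIT3 and TRIB3. They were chosen by symbol, for their known roles as sensors, chaperones and effectors, and all 10 were found once each among the 30550 genes of the expression table. RNA sequencing was done on heart tissue of the right ventricle of pigs (Sus scrofa). The PKP2_het group holds 4 libraries from pigs heterozygous for a knockout of PKP2, the gene of the desmosomal protein plakophilin 2, and the WT group holds 4 libraries from wild-type pigs. The sources used here give neither age, sex, breed and litter, nor how the allele was made, nor whether each library is a separate animal. The p-values below therefore measure the spread between libraries, which may be technical.

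The endoplasmic reticulum folds secreted and membrane proteins and, in heart muscle, is continuous with the calcium store of the sarcoplasmic reticulum. When unfolded proteins build up there, the membrane sensors ERN1 (IRE1), EIF2AK3 (PERK) and ATF6 start the unfolded protein response. IRE1 splices the XBP1 transcript, PERK slows translation while favouring that of ATF4, and ATF6 is cut to release a transcription factor. Chaperones and degradation factors are induced by these routes, and under prolonged stress the transcription factor DDIT3 (CHOP) and its target TRIB3. Gene-level RNA values show neither XBP1 splicing, nor ATF6 cleavage, nor the translation of ATF4.

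Values are FPKM, fragments scaled by gene length and by a factor for each library. They correspond to 23637697 to 31313628 fragments per library. PKP2, which checks the labels, ranged from 24.6 to 45.9 FPKM in PKP2_het and from 52.9 to 72.8 FPKM in WT (limma adjusted p = 0.164, two-sided exact permutation p = 0.0286), and its groups did not overlap. Cardiomyocytes are the labelled cell type and tissue is the described source. Summed FPKM of 11 cardiomyocyte markers was 25673 to 34761 in PKP2_het and 26891 to 29955 in WT, but markers of fibroblasts (243 to 534 in PKP2_het, 280 to 369.9 in WT) and endothelial cells (216 to 439 in PKP2_het, 257 to 509 in WT) were present too. PKP2_het replicate 3 stood apart from the other libraries. In it 52.1% of fragments came from the mitochondrial genome, against 21.1% to 37.6% in the other 7. Log2 fold changes and list medians of the deposited values are therefore also given without it where they move by over 1.5 times. In tissue, fewer cells of a type and less RNA per cell cannot be told apart.

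None of the 10 genes passed the genome-wide threshold, and the mean of HSPA5, the central chaperone gene, was 62.0 FPKM in PKP2_het and 61.4 FPKM in WT. Among the 9 genes that could be tested DDIT3 differed most: its mean was 1.42-fold the WT mean, and all 4 PKP2_het libraries lay above all 4 WT libraries. The lowest means relative to WT were those of the sensor gene ATF6 at 0.814-fold and of the co-chaperone gene DNAJB9 at 0.850-fold, both within the spread between libraries. Of the 10 genes, 9 passed the filter of at least 1 FPKM in at least 4 libraries; TRIB3 did not. Of these 9, limma called 0 higher and 0 lower at a Benjamini-Hochberg adjusted p of 0.05, where 1.15% of all 10757 tested genes were called higher and 0.707% lower. At an unadjusted p of 0.05, 1 of the 9 passed (DDIT3), where 12.8% of all tested genes did. Groups that did not overlap were found for 1 of the 9, with PKP2_het higher; among all tested genes this was 4.86% with PKP2_het higher and 4.33% with PKP2_het lower. The 1 gene of 9 is 11.1%, close to the background of the unadjusted p, so the count itself is no result about the set. The log2 fold change was positive for 4 of the 9 genes and negative for 5, with a median of -0.06, against -0.02 over all tested genes. With libraries rescaled to equal sums it was positive for 1 of the 9 (DDIT3), with a median of -0.32, against -0.25 over all tested genes.

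**Figure D1:**
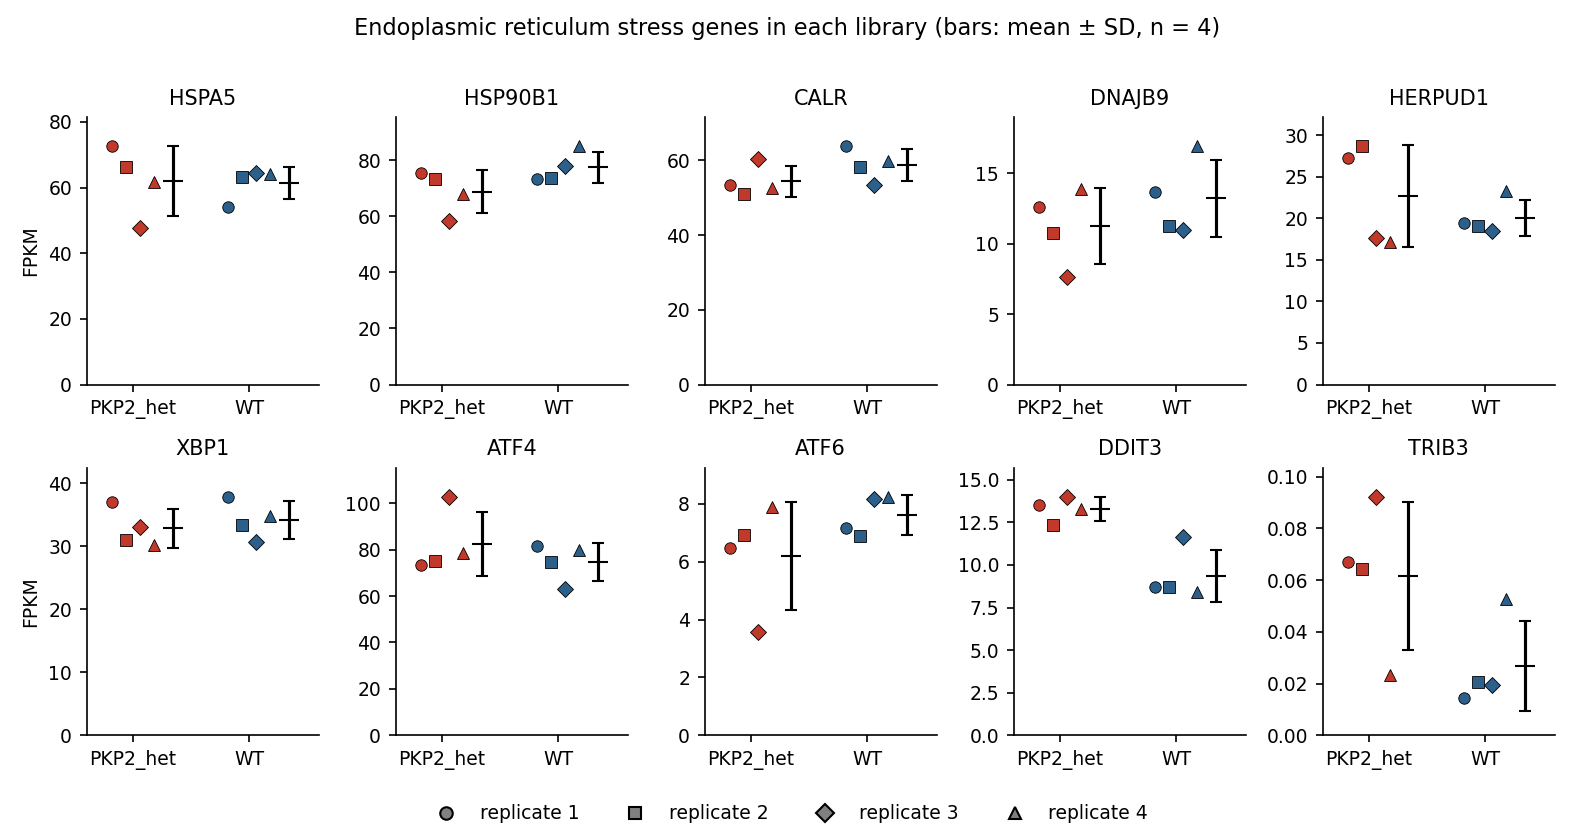
FPKM (vertical axes, starting at 0) of the 10 genes in each PKP2_het (red) and WT (blue) library; marker shapes give the replicate number and bars the mean ± SD of 4 libraries. The 4 PKP2_het values of DDIT3, 12.3 to 14.0 FPKM, all lie above the WT values of 8.41 to 11.6 FPKM, while the groups overlap in the other 9 panels.

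On this scale, which corrects for length, ATF4 had the highest level, with a mean over the 8 libraries of 78.6 FPKM, followed by HSP90B1 at 73.2, HSPA5 at 61.7, CALR at 56.6, XBP1 at 33.6, HERPUD1 at 21.4, DNAJB9 at 12.2, DDIT3 at 11.3, ATF6 at 6.91 and TRIB3 at 0.0442 FPKM. ATF4 exceeded HSP90B1 in 5 of 8 libraries, HSPA5 exceeded CALR in 6 of 8 and DNAJB9 exceeded DDIT3 in 4 of 8, so these neighbours did not hold one order. The remaining neighbours kept their order in all 8 libraries. Among the 10757 tested genes, the levels of ATF4, HSP90B1, HSPA5 and CALR ranked 584, 625, 725 and 785, and that of ATF6 ranked 4752.

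HSPA5 encodes BiP, the Hsp70 chaperone of the endoplasmic reticulum, which also holds the sensors inactive, and its transcript is a standard readout of the response. In the Sscrofa11.1 assembly, used for all positions here, HSPA5 (gene 407060) covers 265930044 to 265934959 of chromosome 1 on the minus strand. HSPA5 had 72.7, 66.3, 47.6 and 61.6 FPKM in PKP2_het replicates 1 to 4, against 54.1, 63.2, 64.3 and 64.0 FPKM in WT replicates 1 to 4. The PKP2_het group held both the highest and the lowest of the 8 values, so the WT range fell inside it. The means were 62.0 ± 10.7 FPKM in PKP2_het libraries and 61.4 ± 4.90 FPKM in WT libraries (SD, n = 4 each), and the log2 fold change was 0.00 with a 95% interval of -0.33 to 0.33 (limma adjusted p = 0.997). Changes beyond 0.797-fold or 1.26-fold thus lay outside this interval, on the log2(FPKM + 1) scale. Without PKP2_het replicate 3 the log2 fold change of HSPA5 was 0.12 (limma adjusted p = 0.608).

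HSP90B1 encodes GRP94, the Hsp90 chaperone of the same compartment. It lies on chromosome 5, from 80511513 to 80531016 on the minus strand. HSP90B1 had 75.4, 73.3, 58.5 and 68.0 FPKM in PKP2_het replicates 1 to 4, against 73.4, 73.6, 77.8 and 85.1 FPKM in WT replicates 1 to 4. WT replicates 3 and 4 lay above every PKP2_het library, but the groups overlapped. The log2 fold change of HSP90B1 was -0.17, with an interval of -0.45 to 0.10 (limma adjusted p = 0.598). Leaving out PKP2_het replicate 3 gave -0.10 (limma adjusted p = 0.656). Its span overlaps that of C5H12orf73 on the other strand by 8430 bases. C5H12orf73 ranged from 15.4 to 19.1 FPKM in PKP2_het and from 14.1 to 16.7 FPKM in WT. The sources used here do not give the strand setting of the counting, and without strand the reads in such an overlap cannot be told apart.

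CALR encodes calreticulin, a lectin chaperone that also binds calcium in the endoplasmic reticulum. It is placed on chromosome 2, from 66098263 to 66102074 on the minus strand. CALR had 53.5, 51.0, 60.5 and 52.7 FPKM in PKP2_het replicates 1 to 4, against 63.9, 58.3, 53.4 and 59.8 FPKM in WT replicates 1 to 4. The groups overlapped, at 51.0 to 60.5 FPKM in PKP2_het and 53.4 to 63.9 FPKM in WT. For CALR the log2 fold change was -0.11, with an interval of -0.36 to 0.14 (limma adjusted p = 0.708), and without WT replicate 1 it was -0.07. A gene annotated as calreticulin-like, LOC100736720, with which reads could be shared, had 1 to 9 fragments per library.

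HERPUD1 encodes a membrane protein that helps to assemble the degradation machinery for misfolded proteins. Its gene is on chromosome 6, from 18901171 to 18913427 on the plus strand. HERPUD1 had 27.3, 28.7, 17.6 and 17.1 FPKM in PKP2_het replicates 1 to 4, against 19.4, 19.1, 18.5 and 23.3 FPKM in WT replicates 1 to 4. The PKP2_het libraries formed a high and a low pair, above and below all WT libraries. The SD was accordingly 6.18 FPKM in PKP2_het and 2.16 FPKM in WT, and the log2 fold change was 0.14 with an interval of -0.28 to 0.55 (limma adjusted p = 0.776). Single libraries moved this value: it was 0.04 without PKP2_het replicate 1, 0.01 without PKP2_het replicate 2, 0.24 without PKP2_het replicate 3, 0.25 without PKP2_het replicate 4 and 0.20 without WT replicate 4.

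XBP1 encodes the transcription factor made from the transcript that IRE1 splices, and DNAJB9 (ERdj4) is a co-chaperone of BiP that is induced by it. The XBP1 gene is on chromosome 14, from 46011239 to 46016526, and DNAJB9 is on chromosome 18, from 36578928 to 36584211, both on the minus strand. XBP1 had 37.1, 31.1, 33.1 and 30.2 FPKM in PKP2_het replicates 1 to 4, against 37.9, 33.5, 30.7 and 34.9 FPKM in WT replicates 1 to 4. The ranges were nearly the same, and the log2 fold change of -0.06 had an interval of -0.31 to 0.20 (limma adjusted p = 0.853). Leaving out PKP2_het replicate 1, 2 or 4 gave -0.115, -0.03 and -0.02, and leaving out WT replicate 1 or 3 gave -0.01 and -0.11. Since plasma cells are rich in XBP1, their markers were looked at: 6 of 8 plasma and B cell markers, MZB1 and TNFRSF17 among them, were below 1 FPKM in every library, and the summed level of the 8 was 3.34 to 4.14 FPKM in PKP2_het and 3.88 to 4.40 FPKM in WT.

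DNAJB9 had 12.6, 10.8, 7.66 and 13.8 FPKM in PKP2_het replicates 1 to 4, against 13.6, 11.3, 10.9 and 16.9 FPKM in WT replicates 1 to 4. PKP2_het replicate 3 was the lowest library and WT replicate 4 the highest, while the other 6 values ran from 10.8 to 13.8 FPKM. The log2 fold change of DNAJB9 was -0.23 with an interval of -0.66 to 0.20 (limma adjusted p = 0.666). Without PKP2_het replicate 3 it was -0.07 (limma adjusted p = 0.864), and without WT replicate 4 it was -0.11.

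ATF6, the sensor that becomes a transcription factor, lies on chromosome 4, from 88591279 to 88806156 on the minus strand. It had 6.47, 6.92, 3.56 and 7.88 FPKM in PKP2_het replicates 1 to 4, against 7.16, 6.90, 8.17 and 8.26 FPKM in WT replicates 1 to 4. Its value in PKP2_het replicate 3 was lower than in any other library by a wide step, and the other 7 libraries ran from 6.47 to 8.26 FPKM. For ATF6 the log2 fold change was -0.30 with an interval of -0.73 to 0.13 (limma adjusted p = 0.567). Leaving out PKP2_het replicate 3 gave -0.09 with an interval of -0.32 to 0.13 (limma adjusted p = 0.692).

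ATF4 encodes the transcription factor of the PERK route and of the wider integrated stress response. Its gene lies on chromosome 5, from 8742964 to 8745752 on the minus strand. ATF4 had 73.4, 75.3, 103 and 78.6 FPKM in PKP2_het replicates 1 to 4, against 81.5, 74.6, 62.9 and 79.8 FPKM in WT replicates 1 to 4. PKP2_het replicate 3 was the highest library for ATF4, and the other 7 lay between 62.9 and 81.5 FPKM. The log2 fold change was 0.14 with all libraries (interval -0.19 to 0.46, limma adjusted p = 0.728) and 0.03 without PKP2_het replicate 3 (limma adjusted p = 0.929). Without WT replicate 3 it was 0.06. An annotated pseudogene like ATF4 (LOC100737763) had 0 to 5 fragments in any library.

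**Figure D2:**
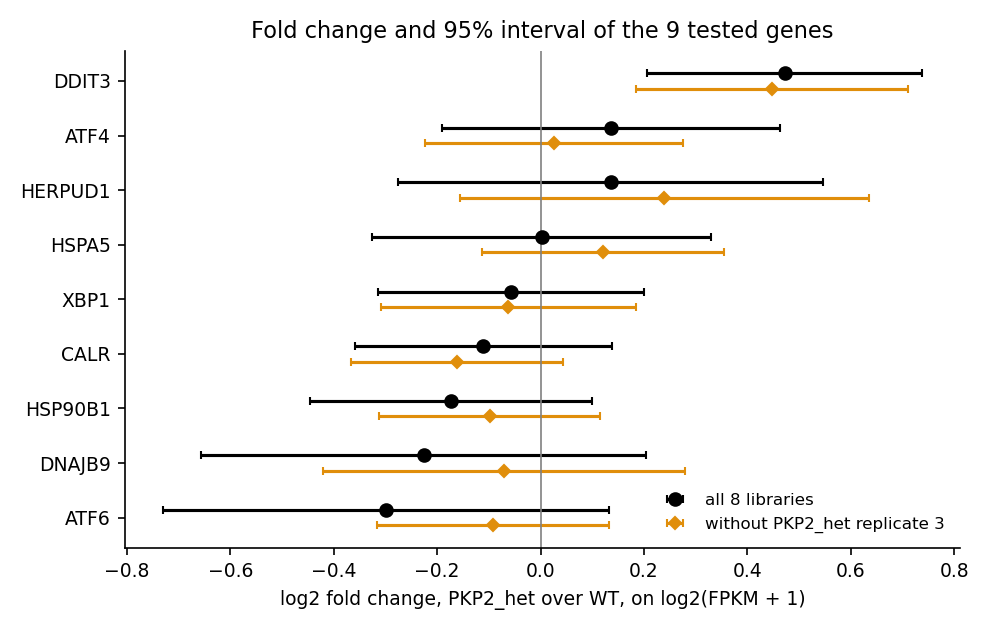
Log2 fold change of PKP2_het over WT on the log2(FPKM + 1) scale (horizontal axis) with its 95% interval from limma, for the 9 tested genes, with all 8 libraries (black) and without PKP2_het replicate 3 (orange). Only the interval of DDIT3, 0.21 to 0.74 with all libraries, lies wholly on one side of 0.

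DDIT3 encodes CHOP, a transcription factor tied to cell death under lasting endoplasmic reticulum stress and induced through ATF4. It lies on chromosome 5, from 22785441 to 22789867 on the minus strand. DDIT3 had 13.5, 12.3, 14.0 and 13.3 FPKM in PKP2_het replicates 1 to 4, against 8.73, 8.71, 11.6 and 8.41 FPKM in WT replicates 1 to 4. Every PKP2_het library was above every WT library, and WT replicate 3 stood above the other 3 WT libraries. The means were 13.3 ± 0.700 FPKM in PKP2_het libraries and 9.37 ± 1.52 FPKM in WT libraries (SD, n = 4 each). These levels rest on 311 to 354 fragments per PKP2_het library and 177 to 350 fragments per WT library. Its log2 fold change was 0.47 (SE 0.12, 95% interval 0.21 to 0.74). A two-sided exact permutation test gave p = 0.0286, which no design of 4 against 4 can go below. Adjusted over all tested genes, the limma p was 0.0964, so DDIT3 was not called.

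Of the alternatives tried, 2 moved DDIT3 past the threshold. With library quality weights its limma adjusted p was 0.0305, a setting in which 3.41% of all tested genes were called higher, and without WT replicate 3 it was 0.0394, with 0.911% of genes called higher. In the other 15 of 17 alternatives the adjusted p ran from 0.0864 to 0.758, with a positive log2 fold change in all 17 (0.23 to 0.57). The 0.23 came with libraries rescaled to equal sums, which shifted the median of all genes to -0.25.

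Ratios within a library do not depend on the scaling between libraries; these were chosen after the values were seen and were not tested. DDIT3 stood at 0.186, 0.186, 0.295 and 0.216 of the HSPA5 level in PKP2_het replicates 1 to 4, against 0.161, 0.138, 0.181 and 0.131 in WT replicates 1 to 4. All PKP2_het ratios to HSPA5 thus lay above the WT ratios. The highest, 0.295, came from PKP2_het replicate 3, the library with the lowest HSPA5 level. Relative to ATF4, DDIT3 was at 0.136 to 0.184 in PKP2_het and 0.105 to 0.185 in WT, and WT replicate 3 had the highest ratio. Relative to XBP1, DDIT3 was at 0.364 to 0.440 in PKP2_het and 0.230 to 0.380 in WT, so these groups overlapped too. The end of DDIT3 overlaps that of MARS, the methionyl-tRNA synthetase gene on the other strand, by 69 bases (22785441 to 22785509). MARS ranged from 10.4 to 14.4 FPKM in PKP2_het and from 12.5 to 15.5 FPKM in WT. Its log2 fold change was -0.12 (limma adjusted p = 0.717), or -0.04 without PKP2_het replicate 3 (limma adjusted p = 0.889). Relative to MARS, DDIT3 was at 0.936 to 1.35 in PKP2_het and 0.542 to 0.911 in WT, without overlap.

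TRIB3, a pseudokinase induced by ATF4 and CHOP, was close to the limit of detection. Its gene lies on chromosome 17, from 34808273 to 34819592 on the minus strand. TRIB3 had 6, 6, 7 and 2 fragments in PKP2_het replicates 1 to 4, against 1, 2, 2 and 5 fragments in WT replicates 1 to 4. Summed by group this was 21 fragments in PKP2_het (95% exact Poisson interval 13.0 to 32.1) and 10 in WT (4.80 to 18.4), intervals that overlap and cover counting error only. The levels were 0.0232 to 0.0923 FPKM in PKP2_het and 0.0144 to 0.0526 FPKM in WT, with a two-sided exact permutation p of 0.0571.

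PKP2_het replicate 3 differed from the other PKP2_het libraries in a way that went with gene length, a comparison added after the data were seen. Relative to the mean of the other PKP2_het libraries on the log2(FPKM + 1) scale, it was at 0.10 for DDIT3 (929 bases), 0.02 for XBP1 (1756 bases), 0.20 for CALR (1918 bases) and 0.44 for ATF4 (2121 bases). It was at -0.48 for HSPA5 (2608 bases), -0.41 for HERPUD1 (2631 bases), -0.62 for DNAJB9 (2744 bases), -0.30 for HSP90B1 (3528 bases) and -0.82 for ATF6 (7768 bases). The 4 shortest of the 9 tested genes were thus higher and the 5 longest lower in that library. Over all tested genes the median of the same difference was 0.20 in the shortest of 5 length classes (59 to 1680 bases) and -0.07, -0.14, -0.15 and -0.18 in the next ones. XBP1, CALR and ATF4 fall in the class with a median of -0.07 and were positive, while HSPA5, HERPUD1 and DNAJB9 of the same class were lower than its median. What part gene length has in these differences was not tested.

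**Figure D3:**
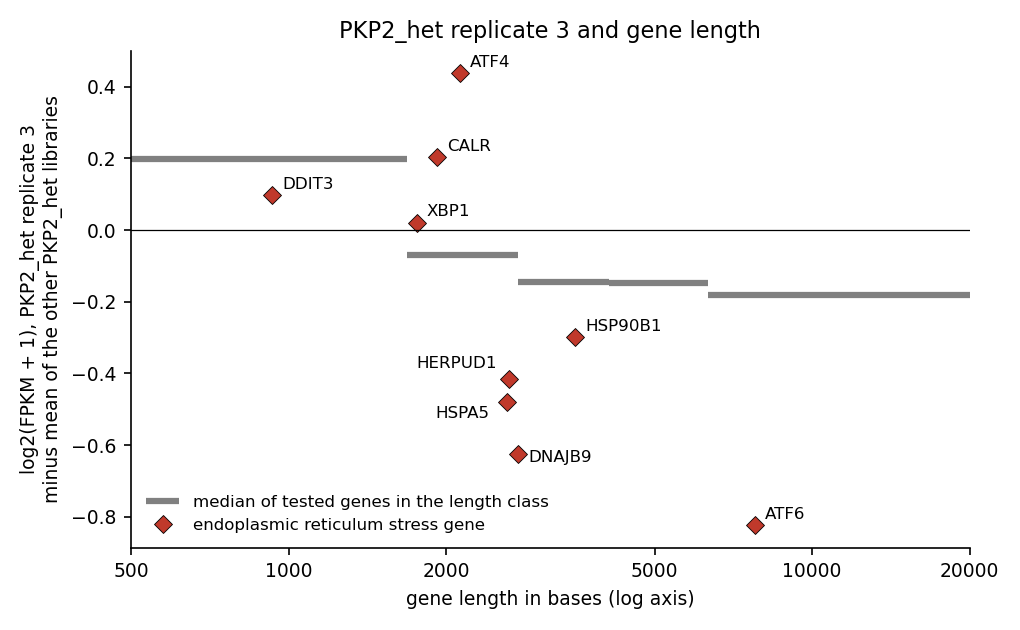
Difference in log2(FPKM + 1) between PKP2_het replicate 3 and the mean of the other 3 PKP2_het libraries (vertical axis) against gene length in bases (horizontal log axis) for the 9 tested genes (diamonds), with the medians of all tested genes in 5 length classes (grey bars, the outer classes running past the axis). ATF4 is at 0.44 and ATF6 at -0.82, and the class medians go from 0.20 in the shortest to -0.18 in the longest.

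The 9 tested genes did not vary as one group across libraries. Pearson's r of log2(FPKM + 1) with HSPA5 is a description over 8 libraries, and all genes of a library share its preparation and depth. It was 0.71 for HSP90B1, 0.67 for ATF6, 0.64 for HERPUD1 and 0.49 for DNAJB9. For XBP1 it was -0.05, for DDIT3 -0.02, for CALR -0.67 and for ATF4 -0.79. Without PKP2_het replicate 3 it was 0.62 for HERPUD1 but 0.21 for HSP90B1, -0.24 for DNAJB9 and -0.30 for ATF6. For DDIT3 it was then 0.57, for XBP1 -0.14, for CALR -0.69 and for ATF4 -0.42. The tested genes whose pattern was most like that of HSPA5 were TARS, a threonyl-tRNA synthetase gene, at r = 0.98, then MYPOP, FAM49A, EPC2 and HACD2 at 0.97 to 0.98. HSP90B1 came in place 1971 of this order. With PKP2_het replicate 3 left out these genes were in places 4, 14, 18, 16 and 31, with r from 0.94 to 0.98, and HSP90B1 was in place 4294.

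The other genes of the response were taken from 7 lists by role, 156 genes in all, of which 138 were tested. Limma called 0 of the 138 in either direction at the adjusted threshold, whereas 15 passed 0.05 without adjustment (9 higher and 6 lower in PKP2_het), which is 10.9% and close to the 12.8% of all tested genes. Groups did not overlap for 6 of the 138 with PKP2_het higher and 3 with PKP2_het lower, smaller shares than the 4.86% and 4.33% of all tested genes. A positive log2 fold change was found for 53 of the 138, beside 4911 of all 10757 tested genes. Without PKP2_het replicate 3 these counts were 62 of the 138 and 5537 of all tested genes. With libraries rescaled to equal sums they were 18 of the 138 and 1572 of all tested genes. As deposited, the median was -0.05, against -0.02 over all tested genes. Without PKP2_het replicate 3 it was -0.02, against 0.01 over all tested genes.

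Among sensors and the genes that process them, ERN1 (IRE1) had 1.82, 2.29, 1.76 and 2.92 FPKM in PKP2_het replicates 1 to 4, against 1.42, 1.34, 1.46 and 1.65 FPKM in WT replicates 1 to 4. Its groups did not overlap, and its log2 fold change was 0.36 (limma adjusted p = 0.236), or 0.56 with voom on fragments (limma adjusted p = 0.198). TRAF2, an adaptor that links IRE1 to kinase signalling, averaged 6.72 ± 1.06 FPKM in PKP2_het libraries and 8.49 ± 0.899 FPKM in WT libraries (SD, n = 4 each; limma adjusted p = 0.349). Of the 11 genes of this list 4 had a positive log2 fold change and 7 a negative one.

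The list around the translation factor eIF2 holds its kinases and phosphatase subunits and also the eIF2B exchange factor. EIF2B3, a subunit of eIF2B, had 8.47, 7.57, 8.96 and 7.67 FPKM in PKP2_het replicates 1 to 4, against 5.09, 6.01, 6.21 and 5.26 FPKM in WT replicates 1 to 4. The groups were apart for this gene, and its log2 fold change was 0.47 (limma adjusted p = 0.0603). Without PKP2_het replicate 3 the log2 fold change of EIF2B3 was 0.42 and its limma adjusted p 0.0499, just past the threshold. That fit called 314 of 10757 tested genes, against 200 with all libraries. Fits without any other single library gave EIF2B3 a limma adjusted p of 0.0856 to 0.202. EIF2B4, another subunit, ranged from 17.5 to 21.5 FPKM in PKP2_het and from 13.8 to 17.8 FPKM in WT, with overlap (limma adjusted p = 0.346). Of 12 genes, 7 were positive.

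Chaperones and folding enzymes other than those above gave 10 positive and 18 negative log2 fold changes among 28 tested genes. The median was -0.04, or -0.01 without PKP2_het replicate 3. The list holds 1 gene of another place, DNAJC5, a vesicle co-chaperone. ERP29, a folding helper of the lumen, averaged 18.0 ± 1.95 FPKM in PKP2_het libraries and 14.1 ± 2.11 FPKM in WT libraries (SD, n = 4 each; limma adjusted p = 0.306). SIL1, the nucleotide exchange factor of BiP, averaged 9.96 ± 1.49 FPKM in PKP2_het libraries and 8.16 ± 0.815 FPKM in WT libraries (SD, n = 4 each; limma adjusted p = 0.431); its log2 fold change was 0.25, or 0.16 without PKP2_het replicate 1. These were the smallest p-values of the list, and ERP29 was its 1 gene with an unadjusted p under 0.05.

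In endoplasmic reticulum-associated degradation, which returns misfolded proteins to the proteasome, 6 of 23 tested genes were positive and 17 negative. The median of this list was -0.095, or -0.052 without PKP2_het replicate 3. Of all 10757 tested genes 5846 were negative. SELENOK, a selenoprotein of this membrane, had 151, 109, 127 and 109 FPKM in PKP2_het replicates 1 to 4, against 103, 82.0, 92.3 and 82.2 FPKM in WT replicates 1 to 4 (limma adjusted p = 0.196). SEL1L, the scaffold of the main ubiquitin ligase, had 7.30, 8.69, 5.13 and 8.45 FPKM in PKP2_het replicates 1 to 4, against 10.1, 9.53, 10.2 and 9.94 FPKM in WT replicates 1 to 4 (limma adjusted p = 0.265). The groups did not overlap for either gene, and they differed in opposite directions. Without PKP2_het replicate 3 the log2 fold change of SEL1L was -0.26, against -0.40 with it.

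The translocon list, of the channel and enzymes through which proteins enter the compartment, had 13 positive and 13 negative log2 fold changes among 26 genes. Its median was -0.01, or -0.03 without PKP2_het replicate 3. SSR3, a subunit of the translocon-associated complex, averaged 2.49 ± 0.209 FPKM in PKP2_het libraries and 1.80 ± 0.103 FPKM in WT libraries (SD, n = 4 each; limma adjusted p = 0.123), and its groups did not overlap. SSR2, of the same complex, averaged 147.5 ± 26.9 FPKM in PKP2_het libraries and 116 ± 10.2 FPKM in WT libraries (SD, n = 4 each; limma adjusted p = 0.410), with overlapping groups.

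ATF4 targets are genes of amino acid supply and stress that concern the same route as DDIT3. Of 34 listed, 24 were tested, 10 positive and 14 negative, with a median of -0.09, or -0.01 without PKP2_het replicate 3. CTH, an enzyme of cysteine synthesis, had 1.90, 2.73, 3.63 and 1.68 FPKM in PKP2_het replicates 1 to 4, against 1.63, 0.697, 0.790 and 0.995 FPKM in WT replicates 1 to 4. The groups were barely apart, with 1.68 FPKM in PKP2_het replicate 4 against 1.63 FPKM in WT replicate 1, and the log2 fold change was 0.77 (limma adjusted p = 0.0995). At this low level the pseudocount matters: the ratio of means was 2.42, and the log2 fold change was 1.20 with a pseudocount of 0.1 (limma adjusted p = 0.0985) and 1.31 with voom on fragments (limma adjusted p = 0.0968). NUPR1, a stress-induced chromatin protein, had 14.4, 9.41, 9.79 and 4.42 FPKM in PKP2_het replicates 1 to 4, against 4.83, 4.24, 3.43 and 4.82 FPKM in WT replicates 1 to 4. PKP2_het replicate 4 lay within the WT range and the other 3 above it. For NUPR1 the log2 fold change was 0.89 (limma adjusted p = 0.177). Without PKP2_het replicate 1, its highest library, it was 0.68 (limma adjusted p = 0.323). Without PKP2_het replicate 4, the lowest PKP2_het library, it was 1.18 (limma adjusted p = 0.0166). That fit called 146 of 10757 tested genes and was the 1 of 17 alternatives that called NUPR1.

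Cell death genes linked to endoplasmic reticulum stress had 3 positive and 11 negative log2 fold changes among 14 tested. Their median was -0.05, or -0.08 without PKP2_het replicate 3. Among all 10757 tested genes 5846 were negative. MAP3K5 (ASK1), a kinase downstream of IRE1, averaged 5.66 ± 1.69 FPKM in PKP2_het libraries and 7.85 ± 0.370 FPKM in WT libraries (SD, n = 4 each; limma adjusted p = 0.315). Its log2 fold change was -0.45, and -0.28 without PKP2_het replicate 3, the lowest library at 3.58 FPKM (limma adjusted p = 0.276). TMBIM6, known as BAX inhibitor 1 and a brake on IRE1, had 63.1, 64.7, 55.0 and 65.8 FPKM in PKP2_het replicates 1 to 4, against 77.1, 74.8, 69.9 and 80.1 FPKM in WT replicates 1 to 4. The groups did not overlap for either gene, but the limma adjusted p of TMBIM6 was 0.319.

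**Figure D4:**
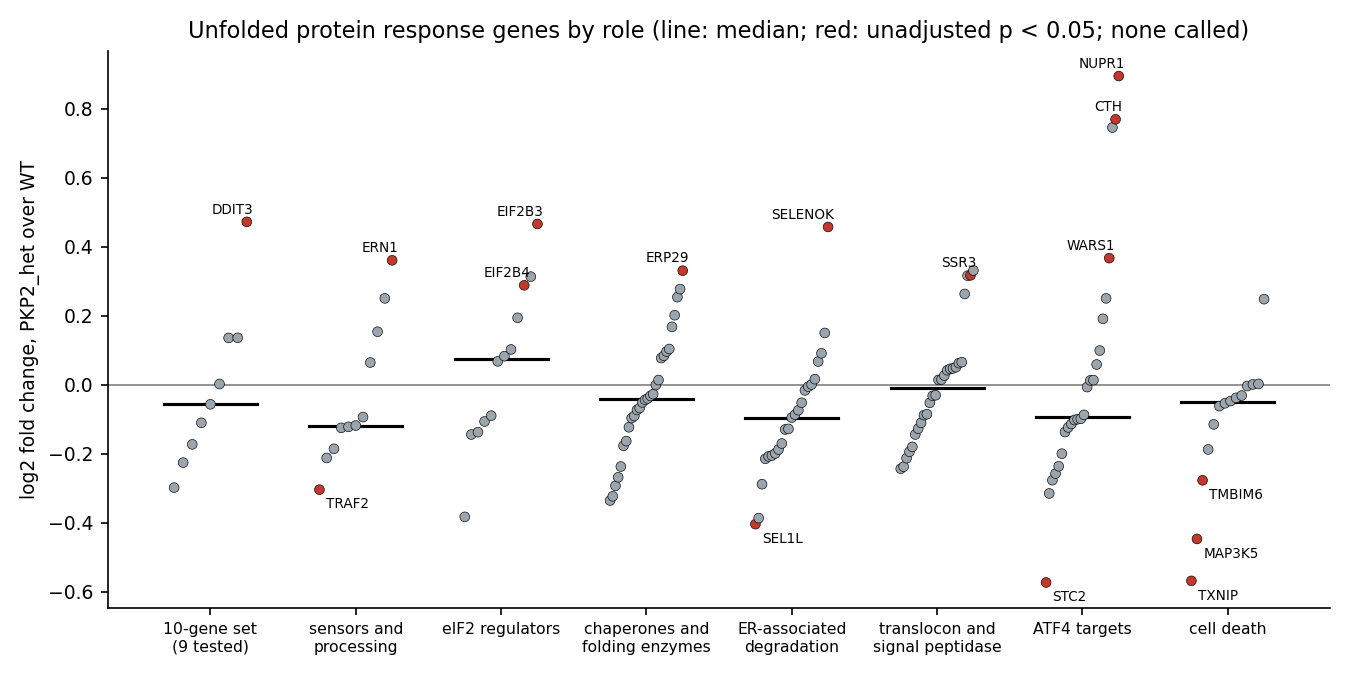
Log2 fold change of PKP2_het over WT on the log2(FPKM + 1) scale (vertical axis) for the 9 tested genes of the set and the 138 tested genes of 7 lists by role; each dot is a gene, red where its unadjusted p is under 0.05, and lines are medians. List medians run from -0.12 for sensors to 0.08 for eIF2 regulators, and no gene passed the adjusted threshold. Without PKP2_het replicate 3, which is not drawn, the medians were -0.03 for sensors and 0.05 for eIF2 regulators, and the lowest was -0.08 for cell death genes.

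Markers of other cell types were compared in the same way. All 8 tested endothelial markers and all 8 tested macrophage markers had a negative log2 fold change, as did 5846 of all 10757 tested genes. Medians were -0.27 and -0.30, or -0.42 and -0.35 without PKP2_het replicate 3. Limma called 0 of either list, and 0 endothelial and 1 macrophage marker had an unadjusted p under 0.05. Positive were 7 of 11 cardiomyocyte, 3 of 8 fibroblast, 4 of 6 smooth muscle and pericyte, and 3 of 4 adipocyte markers. These lists had medians of 0.08, -0.10, 0.07 and 0.32, or 0.14, 0.08, -0.14 and 0.08 without that library. Summed macrophage markers were at 22.5 to 61.6 FPKM in PKP2_het and 40.8 to 56.4 FPKM in WT, so the groups overlapped, as they did for the endothelial sums given above. The part of these cell types in the values of the stress genes was not tested.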

How the data were processed

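Per the labels' protocols, RNA from right ventricular tissue (1 µg per sample) was sequenced as 150-base read pairs; HISAT2 2.0.5 was the aligner, also per the submitters' processing notes. The sources used here do not give the counting program, its strand setting, the annotation or the normalisation. The authors deposited FPKM values for 30550 genes. Multiplying FPKM by length gave whole fragments, within 0.01, for 100% of values in every library; the library factors equal median-of-ratios factors over 15715 genes (largest relative difference 5.6e-14). Coordinates are those of the table, identical to RefSeq's Sscrofa11.1 for the 30335 genes matched by ID.

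The 10757 genes that reached 1 FPKM in 4 or more of the 8 libraries were fitted with limma 3.58.1 in R 4.3.3 on log2(FPKM + 1), with a variance trend, no covariate, two-sided p and Benjamini-Hochberg adjustment over all tested genes. The pseudocount of 1 makes fold changes of low genes too small. The fit was tried on simulated data with changes larger than those of the tested genes of the set. It was not tried on changes as small as theirs. Named genes are the 10 of the set, the 2 with the smallest p of each role list where none was called, the 5 most like HSPA5, and PKP2; members, lists and tests were chosen with earlier results of these data known. Of 224 list entries 215 matched by symbol, 6 by older symbol and 3 not. Alternatives were pseudocounts, filters, scalings, library weights, a replicate term, voom on the recovered fragments, and fits without each library in turn; the ratios and length classes were added after seeing the data.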

Additional observations from a re-analysis of the deposited data

Results flagged for a closer look

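A library was singled out where its gap to the nearest of the other 3 in its group, as a share of the group's range, exceeded Dixon's 95% limit. This was so in 4 of 48 groups, all WT, and chance would single out about 1 in 20. DDIT3 was at 11.6 FPKM in WT replicate 3, against 8.41 to 8.73 FPKM in the other WT libraries. HSPA5 was at 54.1 FPKM in WT replicate 1, against 63.2 to 64.3 FPKM. ERP29 was at 17.3 FPKM in WT replicate 3, against 12.8 to 13.4 FPKM. TRIB3 was at 0.0526 FPKM in WT replicate 4, against 0.0144 to 0.0206 FPKM, which is 5 fragments against 1 or 2.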

How the results depend on the processing

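Of 153 values of the 9 tested genes over 17 alternatives, 143 kept their direction and their side of the threshold, 8 changed sign and 2 passed the threshold. With libraries rescaled to equal sums the log2 fold change was -0.26 for HSPA5, -0.12 for HERPUD1 and -0.13 for ATF4, and the median of the 9 genes was -0.32, as the median of all genes went to -0.25. Quantile normalisation gave -0.017 for HSPA5, and leaving out 1 library gave -0.079 to 0.12. With library quality weights 1 of the 9 genes (DDIT3) and 5 genes of the role lists (ERN1, EIF2B3, CRELD2, SSR3 and CTH) were called; fits without 1 library called 0 to 1 of the 9 (DDIT3, without WT replicate 3) and 0 to 1 of the lists (EIF2B3 without PKP2_het replicate 3, NUPR1 without PKP2_het replicate 4). Their median was then -0.11 to -0.02. Without the filter, TRIB3 was at 0.05 on the log2 scale (limma adjusted p = 0.467). At such low levels the pseudocount of 1 holds this value near 0. The ratio of the TRIB3 means, PKP2_het over WT, was 2.30, and it rests on few fragments. The causes were not tested. Over all tested genes 200 were called, against 659 with weights, 92 with equal sums, 67 of 5819 genes with a mean of at least 5 FPKM, and 115 to 314 without 1 library. The labels do not say whether replicate numbers pair the libraries. Deviations of same-numbered libraries correlated at -0.39, 0.03, -0.23 and 0.20, and 2 of 8 libraries correlated best with their own number. So few libraries cannot decide whether they are paired. With the replicate block 105 genes were called, 0 of them in the set or the lists, the median of the 9 genes stayed at -0.06 and DDIT3 had a limma adjusted p of 0.200.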

Other observations

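Several standard readouts of the ATF4 route were near or below the detection filter, whichever the group. Of the 34 listed ATF4 targets, 24 passed the filter. The genes of this paragraph were picked after their values were seen. Not all readouts were low: ASNS was at 9.73 to 19.4 FPKM in PKP2_het and 9.59 to 17.8 FPKM in WT (limma adjusted p = 0.877). CHAC1, a glutathione-degrading enzyme, ranged from 0 to 0.180 FPKM in PKP2_het and from 0.0212 to 0.104 FPKM in WT. GDF15, a stress hormone, ranged from 0 to 0.102 FPKM in PKP2_het and from 0 to 0.216 FPKM in WT. FGF21, another secreted stress factor, ranged from 0 to 0.187 FPKM in PKP2_het and from 0.0583 to 0.255 FPKM in WT. Above the filter, ATF3, an immediate stress factor, ranged from 2.85 to 30.4 FPKM in PKP2_het and from 1.22 to 44.4 FPKM in WT, so its level differed more between libraries of 1 group than between groups. ATF5 was at 3.47 to 3.87 FPKM in PKP2_het and 2.90 to 3.45 FPKM in WT, without overlap (limma adjusted p = 0.407). STC2, a secreted glycoprotein, was at 9.32 to 19.2 FPKM in PKP2_het and 14.7 to 25.2 FPKM in WT (limma adjusted p = 0.331). WARS1, of the same list, differed the other way, at 7.85 to 10.3 FPKM in PKP2_het and 5.80 to 9.30 FPKM in WT (limma adjusted p = 0.316). TXNIP, which binds thioredoxin and was listed with the cell death genes, was at 148 to 297 FPKM in PKP2_het and 235 to 421 FPKM in WT (limma adjusted p = 0.371).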
